A study of Mus musculus with 8 samples.

Results

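The genes described here are 10 C-type lectin receptor genes of myeloid cells: Clec12a, Clec10a, Clec7a, Clec4a1, Clec4a2, Clec4a3, Clec4n, Clec5a, Cd209a and Ly75. They were chosen by name, with earlier results of these data known. Each was read from the 1 probe set that the array annotation gives to that gene alone. Of the 10 genes, 9 were among the 13356 genes with enough signal to be tested, and Clec4n was not. Values are log2 of the deposited probe set intensity, so a difference of 1 is a doubling. A probe set's level cannot be set against that of another, so only the same gene is compared between groups.

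The 8 arrays measured RNA of 3 sorted mouse bone marrow populations, with 3 arrays of Zeb2hi CDPs, 3 of Zeb2low CDPs and 2 of pre-CD8 DCs. CDPs are dendritic cell (DC) progenitors, here split by high or low Zeb2, and pre-CD8 DCs are progenitors on the way to the CD8-type, or type 1, conventional DC (cDC1). All 3 groups, the comparison groups included, came from animals heterozygous for a Zeb2-GFP fusion reporter, in which green fluorescent protein is joined to the transcription factor Zeb2. No animal without the reporter was among the groups. Cells were sorted into medium with Flt3L, the growth factor of DC progenitors, and RNA was amplified before hybridisation. The labels give neither the sort gates nor the age of the mice, and do not tie the arrays of a group to separate mice. The p-values therefore reflect only how far these samples vary, and that variation may be technical.

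C-type lectin receptors are membrane proteins with a fold that in many members binds sugars, and myeloid cells use them to sense and take up microbes, dying cells and glycosylated proteins. Inhibitory members carry a tyrosine motif in the tail that recruits phosphatases. Activating members signal through the kinase Syk, either by a motif of their own, as Clec7a does, or through the adaptors Fcer1g or Tyrobp. A further kind, with Ly75 as the best known, carries antigen into the cell. Most of these genes lie in gene clusters on mouse chromosome 6, and the mix of lectins on the surface is widely used to tell DC and monocyte subsets apart.

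Because the CDP groups are split by Zeb2, a repressor whose zinc fingers bind the short core CACCT, the start regions of the 6 genes that passed the test in at least 1 comparison are shown. Each is 300 bases from RefSeq (GRCm38.p6), from 250 bases before to 50 after the gene's start, written 5′ to 3′ on the gene's strand. Capitals mark CACCT or its reverse complement AGGTG.
Clec4a1, chr6:122921598-122921897, plus strand: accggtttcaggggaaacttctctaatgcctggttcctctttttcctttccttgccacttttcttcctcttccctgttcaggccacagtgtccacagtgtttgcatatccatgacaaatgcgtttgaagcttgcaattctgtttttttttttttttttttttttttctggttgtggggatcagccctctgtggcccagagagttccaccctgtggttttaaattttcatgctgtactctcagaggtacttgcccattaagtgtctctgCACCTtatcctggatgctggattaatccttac
Clec4a3, chr6:122952265-122952564, plus strand: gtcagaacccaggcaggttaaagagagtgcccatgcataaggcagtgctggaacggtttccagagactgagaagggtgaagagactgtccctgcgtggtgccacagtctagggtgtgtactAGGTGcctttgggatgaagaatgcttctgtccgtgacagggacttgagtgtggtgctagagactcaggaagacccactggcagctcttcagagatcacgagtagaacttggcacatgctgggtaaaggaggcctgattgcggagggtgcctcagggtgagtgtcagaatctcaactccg
Clec4a2, chr6:123122440-123122739, plus strand: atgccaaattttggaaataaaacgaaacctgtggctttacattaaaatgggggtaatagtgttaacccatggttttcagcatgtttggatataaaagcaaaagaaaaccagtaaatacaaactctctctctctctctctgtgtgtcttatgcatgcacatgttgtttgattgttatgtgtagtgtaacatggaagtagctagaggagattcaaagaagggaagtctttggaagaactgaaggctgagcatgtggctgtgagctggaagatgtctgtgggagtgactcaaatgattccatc
Cd209a, chr8:3748935-3749234, minus strand: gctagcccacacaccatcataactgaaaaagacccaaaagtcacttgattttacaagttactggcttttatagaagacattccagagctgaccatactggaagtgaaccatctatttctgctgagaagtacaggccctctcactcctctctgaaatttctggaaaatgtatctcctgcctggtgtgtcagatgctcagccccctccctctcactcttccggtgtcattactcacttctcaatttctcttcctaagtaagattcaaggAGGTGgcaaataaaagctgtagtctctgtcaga
Ly75, chr2:60383224-60383523, minus strand: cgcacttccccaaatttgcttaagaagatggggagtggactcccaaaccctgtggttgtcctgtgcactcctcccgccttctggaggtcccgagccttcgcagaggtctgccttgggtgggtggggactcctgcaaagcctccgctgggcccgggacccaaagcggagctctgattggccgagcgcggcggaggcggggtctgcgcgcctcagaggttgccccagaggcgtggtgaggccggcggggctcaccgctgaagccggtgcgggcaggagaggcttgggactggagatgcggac
Clec12a, chr6:129349994-129350293, plus strand: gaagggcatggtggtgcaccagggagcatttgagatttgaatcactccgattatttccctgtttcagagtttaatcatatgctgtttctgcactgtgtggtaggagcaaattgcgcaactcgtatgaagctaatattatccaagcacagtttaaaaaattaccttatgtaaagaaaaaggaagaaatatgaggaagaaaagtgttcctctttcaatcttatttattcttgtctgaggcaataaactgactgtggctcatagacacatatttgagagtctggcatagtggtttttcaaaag

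RefSeq windows were found for 8 of the 10 genes, 10 windows in all since Clec4a3 and Clec7a have a pair each, and none was in the table for Clec10a and Clec4n. The core lay 18 bases past the start in Cd209a, 19 bases past it in Clec4a1 and at position -129 in the Clec4a3 window shown. It was in 3 of the 10 windows, beside 51.9% of 32851 windows of the same length over all genes. The windows of Clec4a2, with the largest rise, of Ly75 and of Clec12a, the gene that fell, hold no such letters. All 3 windows with the core are among the 6 shown. The other motifs were searched on both strands, overlaps allowed. TGANTCA, of the kind bound by AP-1 and BATF, was in 2 of the 10 windows (Clec4a2 and Clec12a) and in 7.81% of all. TTGCNNAA, of the C/EBP kind, was also in 2 (Clec12a and Ly75) and in 10.8% of all. GAGGAAGT (PU.1 kind, 3.2% of all windows) and the IRF kind, GAAA, any 2 bases and GAAA again (3.44% of all), were in 0 of the 10. A match of letters is a description and does not show a bound site.

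The Zeb2 signal followed the labels of the CDP groups, with a mean log2 of 9.27 ± 0.20 (SD, n = 3) in Zeb2hi CDPs and 7.68 ± 0.18 (n = 3) in Zeb2low CDPs. In pre-CD8 DCs, whose label gives no Zeb2 level, it was 6.73 ± 0.28 (n = 2). Array medians lay between 4.91 and 5.14, and the arrays' 40th percentiles, used as the mark for low signal, between 4.31 and 4.62. Pairs of arrays within a group correlated over all genes at 0.971 to 0.989 in Zeb2hi CDPs, at 0.939 to 0.975 in Zeb2low CDPs and at 0.937 in pre-CD8 DCs. The mean log2 signal of 12 cDC1 genes was 6.29 to 6.47, 7.45 to 7.55 and 8.44 to 9.06 in the 3 groups, in that order. That of 6 CDP genes, among them Flt3, was 8.61 to 8.66, 8.44 to 8.71 and 8.37 to 8.72. Genes of mature neutrophils, which are not DC progenitors, were bright and uneven on these arrays. The mean of 12 of them was 7.92 to 9.77 in Zeb2hi CDPs, 9.62 to 11.63 in Zeb2low CDPs and 9.92 to 12.03 in pre-CD8 DCs. Their signal was highest on Zeb2low array 2 and pre-CD8 DC array 1, and those values are given below beside the genes they move with; their part in a result was not tested beyond the covariate values given there. Of the 12 neutrophil genes, 3 passed as higher in Zeb2low CDPs and 4 in pre-CD8 DCs against Zeb2hi CDPs, and 0 passed as lower in either. Other marker lists also differed between the CDP groups with no overlap of their means. In the same group order, 5 mast cell and basophil genes had means of 5.01 to 5.25, 5.60 to 6.64 and 6.10 to 6.43, and 8 plasmacytoid DC genes 6.81 to 6.89, 6.997 to 7.63 and 7.32 to 7.46. The means of 2 T and NK cell genes were 4.76 to 4.79, 5.17 to 5.97 and 5.36 to 5.97, those of 3 B cell genes 4.50 to 5.19, 5.21 to 5.91 and 4.71 to 5.03, and those of 7 cDC2 genes 7.13 to 7.33, 7.39 to 7.66 and 7.24 to 7.63. The 4 neutrophil primary granule genes went down instead, at 11.13 to 11.49, 8.01 to 9.90 and 9.57 to 10.45. In Zeb2low against Zeb2hi CDPs, 2 of 5 mast cell and basophil, 4 of 8 plasmacytoid DC, 1 of 2 T and NK cell, 1 of 3 B cell and 1 of 7 cDC2 genes passed as higher, and 2 of 7 cDC2 and 2 of 4 primary granule genes as lower. Over all genes, 4.5% passed as higher and 10.3% as lower there, and 6.51% and 11.1% in pre-CD8 DCs against Zeb2hi CDPs. Cd79a (B cell), Ccr9 (plasmacytoid DC), Cpa3 and Fcer1a (mast cell and basophil) were below the 40th percentile on every Zeb2hi array. They were tested only through the groups where they are high, so the higher counts and means of these lists were in part set by the filter. The CDP groups overlapped in the means of 13 monocyte and macrophage genes, at 8.25 to 8.56, 8.50 to 9.02 and 8.45 to 9.20. Of the 13, 4 passed as higher and 1 as lower in Zeb2low CDPs, and 4 and 2 in pre-CD8 DCs, against Zeb2hi CDPs. The means of 2 erythroid genes also overlapped, at 4.12 to 4.75, 4.74 to 7.26 and 5.90 to 6.17, with the 7.26 on Zeb2low array 3. The part of these lists in the lectin results was not tested.

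Between Zeb2hi and Zeb2low CDPs, 4 of the 9 tested lectin genes were higher in Zeb2low cells (Clec4a2, Clec4a3, Cd209a and Ly75) and 1 was lower (Clec12a), at an adjusted p below 0.05 from limma with Benjamini-Hochberg adjustment over all genes tested. Over all 13356 genes, 4.5% passed as higher and 10.3% as lower, 14.8% together. The median difference of the 9 genes was 0.69, beside 0.03 for all genes. Between Zeb2hi CDPs and pre-CD8 DCs, 5 of the 9 were higher in pre-CD8 DCs (Clec4a1, Clec4a2, Clec4a3, Cd209a and Ly75) and 0 lower, with 6.51% and 11.1% of all genes. The median was 1.43 beside -0.02 for all genes. Of the 5, Clec4a1 was tested only through the groups where it is high, so its place among them was in part set by the filter on low signal. Both comparisons use the same Zeb2hi arrays, so they are not independent. The genes were chosen with earlier results of these data known, so any excess over all genes is no independent support. Between Zeb2low CDPs and pre-CD8 DCs, 0 of the 9 genes passed in limma, where 0.554% of all genes did, and the unadjusted p was below 0.05 for 2 of them, Clec4a1 and Cd209a. All 9 differences in that last comparison were positive, with a median of 0.52 beside -0.03. Counting instead genes whose groups did not overlap, 4 of the 9 were higher and 3 lower in the first comparison (20.2% and 21.5% of all genes); Clec10a, tested only through its higher Zeb2hi arrays, is 1 of the 3. In pre-CD8 DCs, 5, Clec4a1 again among them, were wholly above and 2, Clec10a again among them, wholly below Zeb2hi CDPs (21.4% and 27.1% of all genes). Against Zeb2low CDPs, 4 were wholly above and 0 below (12.4% and 15.4% of all genes).

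The count in the first comparison rests on few arrays, and so does the count over all genes. With 1 array left out, 532 to 2222 of all genes passed in place of 1978. The lectin count was 1, Clec4a2 alone, without Zeb2hi array 2, without Zeb2hi array 3 or without Zeb2low array 3, and 3 without Zeb2low array 2. With arrays of the same number as a block over the CDP arrays it was 7, of which 4 were higher and 3 lower, among the latter Clec10a, whose lower value the filter on low signal had built in, while 4070 of all genes passed in place of 1978. The scale mattered for direction over all genes: the higher calls made up 30.4% of calls as deposited, 40.9% after quantile normalization and 14.2% after centring each array on its median, which moved the median of all genes by -0.16. The count in the second comparison was 5 with any 1 array left out, where 1173 to 2779 of all genes passed in place of 2352. In bulk RNA of this kind, fewer cells of a type and less RNA per cell cannot be told apart.

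**Figure D1:**
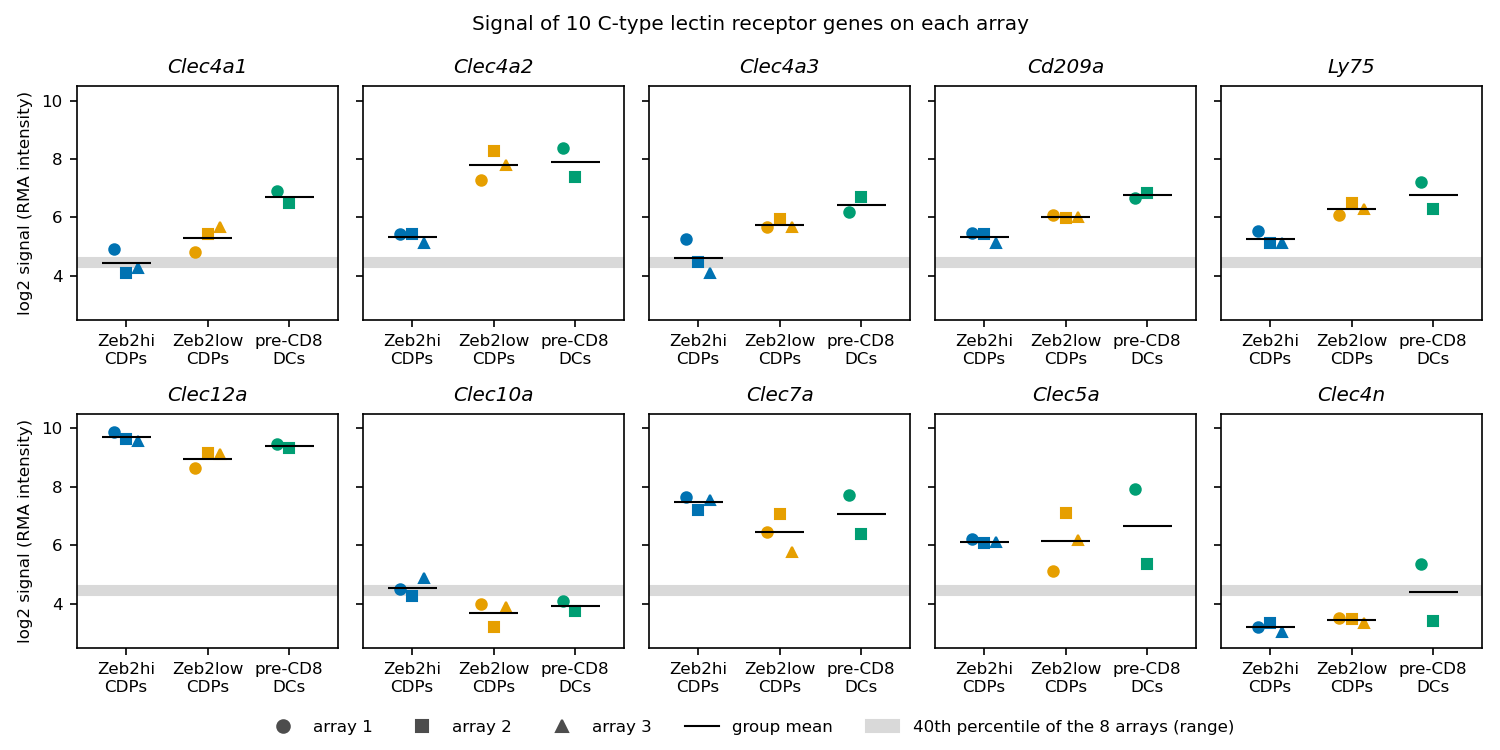
Log2 signal (RMA intensity) of each of the 10 genes on each of the 8 arrays, by group; marker shape gives the array number, the line the group mean, and the grey band the range of the arrays' 40th percentiles (4.31 to 4.62). Clec4a2 reads 5.14 to 5.45 on the Zeb2hi arrays and 7.28 to 8.39 on the other 5, Clec12a is lowest in Zeb2low CDPs, and Clec5a and Clec7a spread widely within groups.

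Among the inhibitory receptors, Clec4a2 changed most. It encodes DCIR, which carries an inhibitory tail motif and is found on conventional DCs and monocytes. Its signal was 5.44, 5.45 and 5.14 on the Zeb2hi arrays, 7.28, 8.28 and 7.80 on the Zeb2low arrays, and 8.39 and 7.38 on the pre-CD8 DC arrays. All 5 arrays of the later 2 groups were thus above all 3 Zeb2hi arrays. The signal rose 5.45-fold in Zeb2low CDPs (log2 difference 2.45 ± 0.31 SE, adjusted p = 0.00291) and was 5.82-fold higher in pre-CD8 DCs than in Zeb2hi CDPs (2.54 ± 0.35, adjusted p = 0.00246). Between Zeb2low CDPs and pre-CD8 DCs the arrays overlapped, and the difference was 0.10 with a 95% interval from -0.69 to 0.88. Both calls against Zeb2hi CDPs held in every alternative run, 21 in the first comparison and 20 in the second. Within each of the 3 groups, the array order of Clec4a2 was that of the mature neutrophil genes. With the neutrophil mean as a covariate its differences were 1.73 (adjusted p = 0.00547) and 1.69 (adjusted p = 0.00986).

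Clec12a, an inhibitory receptor that senses uric acid crystals and dying cells, went the other way in CDPs. Its signal was 9.86, 9.65 and 9.57 in Zeb2hi CDPs, 8.63, 9.14 and 9.13 in Zeb2low CDPs, and 9.47 and 9.31 in pre-CD8 DCs. No Zeb2low array reached the Zeb2hi arrays, and the pre-CD8 DC arrays lay between the other 2 groups. It fell by 0.73 ± 0.18 (SE) on the log2 scale, 1.66-fold, in Zeb2low CDPs (adjusted p = 0.0283). The differences of pre-CD8 DCs were 0.42 ± 0.20 against Zeb2low CDPs (adjusted p = 0.406) and -0.31 ± 0.20 against Zeb2hi CDPs (adjusted p = 0.33, 95% interval -0.76 to 0.14). The fall did not pass after quantile normalization (-0.44, adjusted p = 0.12) or when the array number was a block in a fit of all arrays (adjusted p = 0.0657). Nor did it pass without Zeb2hi array 1 (adjusted p = 0.0671), array 2 (0.0936) or array 3 (0.077), and without Zeb2low array 1 (0.0538) or array 3 (0.0521). With the neutrophil mean as a covariate it was -0.95 (adjusted p = 0.0321).

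Clec4a1 and Clec4a3 encode further receptors of the DCIR family, coded beside each other on chromosome 6. Clec4a1 read 4.94, 4.12 and 4.28 in Zeb2hi CDPs, 4.81, 5.43 and 5.69 in Zeb2low CDPs, and 6.91 and 6.51 in pre-CD8 DCs. Zeb2low array 1 lay below Zeb2hi array 1, while both pre-CD8 DC arrays were above all 6 CDP arrays. It was 4.81-fold higher in pre-CD8 DCs than in Zeb2hi CDPs (2.27 ± 0.32 SE, adjusted p = 0.00264), but Zeb2hi arrays 2 and 3 were below their 40th percentile, where the size of a fold is uncertain. Clec4a1 was thus tested only through the groups where it is high, and its call was in part set by the filter. The difference of Zeb2low from Zeb2hi CDPs, 0.86 ± 0.28, had an adjusted p of 0.0732, which was 0.0353 without Zeb2hi array 1 and 0.0355 without Zeb2low array 1. Pre-CD8 DCs minus Zeb2low CDPs was 1.40 ± 0.32 (adjusted p = 0.107).

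Clec4a3 read 5.26, 4.49 and 4.09 in Zeb2hi CDPs, 5.66, 5.93 and 5.66 in Zeb2low CDPs, and 6.18 and 6.69 in pre-CD8 DCs. The 3 groups did not overlap, and the Zeb2hi arrays were the most spread. It rose 2.20-fold in Zeb2low CDPs (1.14 ± 0.29 SE, adjusted p = 0.0311) and was 3.53-fold higher in pre-CD8 DCs than in Zeb2hi CDPs (1.82 ± 0.32, adjusted p = 0.0067). The step from Zeb2low CDPs to pre-CD8 DCs, 0.68 ± 0.32, had an adjusted p of 0.4. The rise in CDPs no longer passed without Zeb2hi array 2 (adjusted p = 0.114) or array 3 (0.105), and without Zeb2low array 1 (0.0564), array 2 (0.089) or array 3 (0.073). With the neutrophil mean as a covariate the differences were nearly as large, 1.12 and 1.80, but neither passed (adjusted p = 0.0983 and 0.051).

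The endocytic receptors Ly75 and Cd209a both rose. Ly75 encodes DEC-205, which delivers antigen for presentation and marks the CD8-type DC in lymphoid organs. Its signal was 5.54, 5.13 and 5.14 in Zeb2hi CDPs, 6.10, 6.49 and 6.28 in Zeb2low CDPs, and 7.23 and 6.30 in pre-CD8 DCs. The Zeb2hi arrays lay below all others, and pre-CD8 DC array 2 lay within the Zeb2low range. Ly75 rose 2.03-fold in Zeb2low CDPs (1.02 ± 0.25 SE, adjusted p = 0.0275) and was 2.82-fold higher in pre-CD8 DCs than in Zeb2hi CDPs (1.49 ± 0.28, adjusted p = 0.00811). Pre-CD8 DCs minus Zeb2low CDPs was 0.47 ± 0.28 (adjusted p = 0.498). Its array order within Zeb2low CDPs and within pre-CD8 DCs was that of the neutrophil genes. With their mean as a covariate the differences against Zeb2hi CDPs were 0.61 (adjusted p = 0.162) and 1.01 (adjusted p = 0.0918). The call in CDPs no longer passed without Zeb2hi array 2 (adjusted p = 0.108) or array 3 (0.104), without Zeb2low array 2 (0.0843) or array 3 (0.0741), and after median centring (0.0508).

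Cd209a, a mouse relative of the pathogen receptor DC-SIGN, had the smallest SE of the 9 tested genes. It read 5.47, 5.42 and 5.12 in Zeb2hi CDPs, 6.10, 5.98 and 6.02 in Zeb2low CDPs, and 6.68 and 6.85 in pre-CD8 DCs. The groups stood in 3 separate steps with no overlap. The signal rose 1.62-fold in Zeb2low CDPs (0.69 ± 0.15 SE, adjusted p = 0.0176) and was 2.69-fold higher in pre-CD8 DCs than in Zeb2hi CDPs (1.43 ± 0.16, adjusted p = 0.00118). The upper step, from Zeb2low CDPs to pre-CD8 DCs, was 0.73 ± 0.16, about as large as the lower one, but had an adjusted p of 0.105 in that comparison. The pre-CD8 DC array with less neutrophil signal was the higher one for Cd209a. With the neutrophil mean as a covariate the differences stayed at 0.70 (adjusted p = 0.0619) and 1.44 (adjusted p = 0.013). The call in CDPs no longer passed without Zeb2hi array 2 (adjusted p = 0.0618) or array 3 (0.0793) and without Zeb2low array 3 (0.0521).

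Clec10a encodes MGL1, a receptor for galactose-type sugars found on macrophages and some DCs. Its signal was near the mark for low signal or below it, with 4.49, 4.25 and 4.87 in Zeb2hi CDPs, 3.99, 3.22 and 3.88 in Zeb2low CDPs, and 4.08 and 3.73 in pre-CD8 DCs. It was tested only because Zeb2hi arrays 1 and 3 lay above their 40th percentile, so a lower value elsewhere was built into its passing and the tests below support nothing. All 5 other arrays were below the Zeb2hi arrays. Zeb2low minus Zeb2hi CDPs was -0.84 ± 0.25 (SE) with an adjusted p of 0.0524, which was 0.0305 after quantile normalization, 0.0254 after median centring, 0.0304 when the array number was a block in a fit of all arrays and 0.00836 in one of the CDP arrays. Without Zeb2low array 1 it was 0.0482. Pre-CD8 DCs minus Zeb2hi CDPs was -0.63 ± 0.27 (adjusted p = 0.152).

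**Figure D2:**
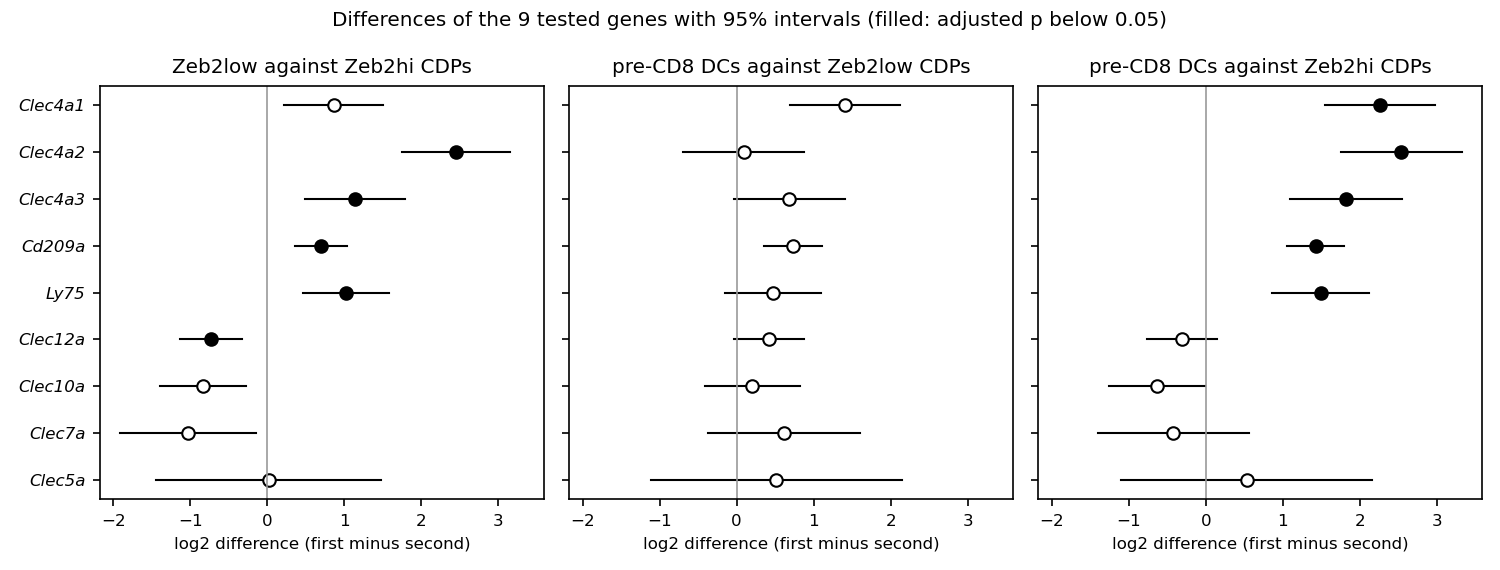
Log2 differences (first group minus second) of the 9 tested genes in the 3 comparisons, with 95% intervals; filled points have an adjusted p below 0.05. Against Zeb2hi CDPs, 4 genes are higher and Clec12a is lower in Zeb2low CDPs, and 5 are higher in pre-CD8 DCs, while between Zeb2low CDPs and pre-CD8 DCs every point is open and right of 0.

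Of the activating receptors, Clec7a and Clec5a did not pass in any of the 3 comparisons, and Clec4n was too dim to test. Clec7a encodes Dectin-1, the receptor for fungal beta-glucan. It read 7.65, 7.22 and 7.55 in Zeb2hi CDPs, 6.47, 7.06 and 5.78 in Zeb2low CDPs, and 7.71 and 6.39 in pre-CD8 DCs. Each Zeb2low array was below each Zeb2hi array, while the pre-CD8 DC arrays fell 1 above and 1 below the Zeb2hi range. Zeb2low minus Zeb2hi CDPs was -1.03 ± 0.39 (SE, adjusted p = 0.106, 95% interval -1.91 to -0.15). That adjusted p was 0.0331 with the array number as a block over the CDP arrays and 0.0222 without Zeb2low array 2 and pre-CD8 DC array 1 together, the 2 arrays with the most neutrophil signal. Pre-CD8 DCs minus Zeb2hi CDPs was -0.42 ± 0.43, with an interval from -1.40 to 0.57.

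Clec5a, which signals through Tyrobp on monocytes and neutrophils, had its spread within groups rather than between them. It read 6.20, 6.06 and 6.10 in Zeb2hi CDPs, 5.13, 7.10 and 6.17 in Zeb2low CDPs, and 7.93 and 5.37 in pre-CD8 DCs. The highest array of each of the later groups, Zeb2low array 2 and pre-CD8 DC array 1, was also the one with the most neutrophil signal, and the lowest was the one with the least. Zeb2low minus Zeb2hi CDPs was 0.01 ± 0.64 (SE), with a 95% interval from -1.44 to 1.47, so these arrays could not show a 2-fold change either way. With the neutrophil mean as a covariate the differences were -1.40 (adjusted p = 0.107) and -1.15 (adjusted p = 0.264). Clec4n encodes Dectin-2, a receptor for fungal mannans that uses Fcer1g. It read 3.21, 3.33 and 3.03 in Zeb2hi CDPs, 3.50, 3.49 and 3.35 in Zeb2low CDPs, and 5.36 and 3.41 in pre-CD8 DCs. A single array, again pre-CD8 DC array 1, was above its 40th percentile, so the gene was not tested. Without the filter on low signal its difference of pre-CD8 DCs from Zeb2hi CDPs was 1.20 (adjusted p = 0.135).

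**Figure D3:**
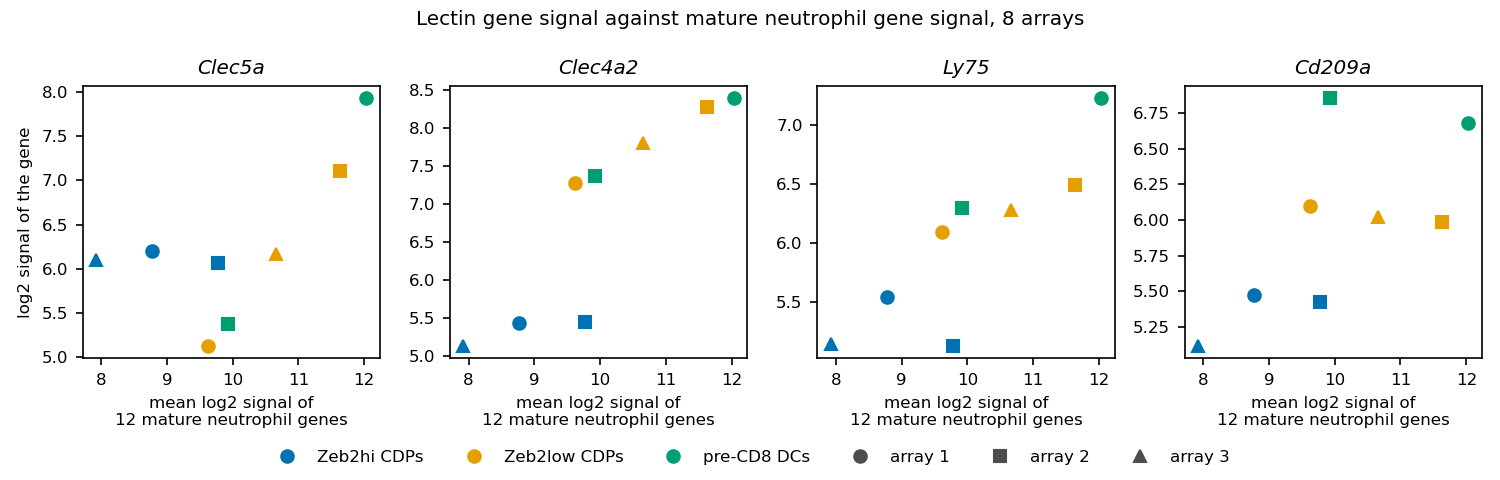
Log2 signal of Clec5a, Clec4a2, Ly75 and Cd209a against the mean log2 signal of 12 mature neutrophil genes on the 8 arrays; colour gives the group and shape the array number, and each panel has its own vertical scale. Clec5a is highest on the 2 arrays with the most neutrophil signal, Clec4a2 and Ly75 follow the neutrophil order within Zeb2low CDPs and pre-CD8 DCs, and Cd209a stands in steps by group.

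The genes were also compared by their pattern over the arrays. Cd209a was closest to Clec4a3, with a root mean square difference of 0.33 between their centred log2 signals over the 8 arrays, and then to Ly75 at 0.35. Clec12a was closest to Clec10a at 0.40, and the pair farthest apart was Clec10a and Clec4a2 at 1.66. The filter on low signal had built in the lower values of Clec10a outside Zeb2hi CDPs, so its distances support nothing about a shared pattern. Among all tested genes outside the 10, the nearest to Cd209a were Irf4 (0.12) and Traf5 (0.13). Irf4 was above the mark for low signal only on the 2 pre-CD8 DC arrays (5.05 and 5.19). The filter had thus built in its higher values there, so the distance of Irf4 supports nothing about a shared pattern. The nearest to Ly75 were Cpeb2 (0.12) and Fam114a1 (0.14). Clec12a was nearest to Dpagt1 (0.11) and Rbm3 (0.11), Clec4a1 to Pgap6 (0.22) and Tmem106a (0.24), and Clec4a3 to Gpr65 (0.23) and Hacd2 (0.25). For Clec4a2 the nearest were Lilra6 (0.28) and Hsd11b1 (0.31).

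Of the 10 genes, 7 are coded on chromosome 6, and 6 of these lie in 2 runs of neighbouring lectin genes by RefSeq order. The DCIR and Dectin-2 run holds Clec4a1, Clec4a3, Clec4a4, Clec4b1, Clec4a2, Clec4b2, Clec4n, Clec4d and Clec4e, and 7 of these 9 were tested. In Zeb2low against Zeb2hi CDPs, 3 of the 7 were higher and 0 lower (4.5% and 10.3% of all genes), and in pre-CD8 DCs against Zeb2hi CDPs 4 were higher and 0 lower (6.51% and 11.1% of all genes). All 7 differences were positive in both, which share the Zeb2hi arrays, and Clec4b1 is counted in each. Clec4a1, Clec4b2 and Clec4e, each above the 40th percentile on only 1 Zeb2hi array, were, like Clec4b1, tested only through the other groups. The filter thus favoured positive signs, and the 7 positive signs support nothing about the run. Besides the DCIR genes above, Clec4b1, of the DCAR kind, read 3.35, 3.37 and 3.25 in Zeb2hi CDPs, 4.87, 4.50 and 4.57 in Zeb2low CDPs, and 5.22 and 6.58 in pre-CD8 DCs. Against Zeb2hi CDPs the differences of Clec4b1 were 1.32 ± 0.30 (SE, adjusted p = 0.0228) and 2.57 ± 0.34 (adjusted p = 0.00212). All 3 Zeb2hi arrays were below their 40th percentile for Clec4b1, so it was tested only through the groups where it is high, and its place among the higher genes was in part set by the filter. At the far end of the run Clec4e, or Mincle, a receptor for mycobacterial glycolipid, read 4.09, 5.34 and 4.09, then 5.54, 7.60 and 5.65, then 8.50 and 4.92 in the same group order. Clec4e had differences of 1.76 ± 0.88 and 2.21 ± 0.99 against Zeb2hi CDPs that did not pass (adjusted p = 0.2 and 0.164), and its highest arrays were again the 2 with the most neutrophil signal.

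The Dectin-1 run holds Clec12a, Clec12b, Clec1b, Clec9a, Clec1a, Clec7a and Olr1, of which 5 were tested, and its genes did not go 1 way. In Zeb2low CDPs Clec12a was lower and Olr1 higher (1.43 ± 0.34 SE, adjusted p = 0.0261), so 1 of the 5 passed in each direction, beside 4.5% higher and 10.3% lower of all genes. Olr1, at 3.92, 4.09 and 3.84 in Zeb2hi CDPs, was below the 40th percentile on all 3 of those arrays and was tested only through the other groups. In pre-CD8 DCs 3 of the 5 were higher than in Zeb2hi CDPs and 0 lower, beside 6.51% and 11.1% of all genes. The 3 were Olr1, a receptor for oxidised lipoprotein (2.11 ± 0.38), Clec9a, the dead-cell receptor that marks cDC1 and their progenitors (2.06 ± 0.33, adjusted p = 0.00468), and Clec1a (1.30 ± 0.35, adjusted p = 0.0352). For Olr1 the limit above holds here too. Clec9a read 8.36, 7.34 and 7.79 in Zeb2hi CDPs, 8.46, 7.55 and 7.95 in Zeb2low CDPs, and 10.00 and 9.77 in pre-CD8 DCs. Its CDP groups overlapped, with a difference of 0.16 ± 0.30 (adjusted p = 0.726).

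**Figure D4:**
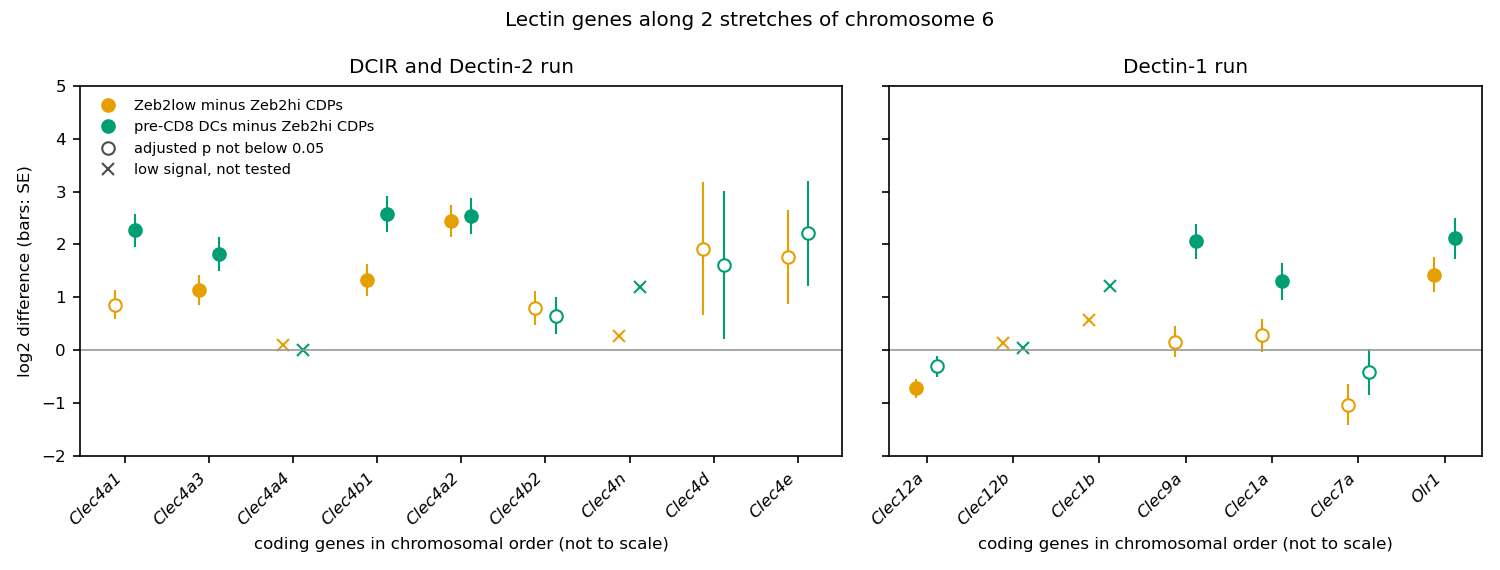
Log2 differences from Zeb2hi CDPs, with SE bars, of the coding lectin genes along 2 stretches of chromosome 6 in chromosomal order, not to scale; filled points have an adjusted p below 0.05 and crosses are genes of low signal that were not tested. All 7 tested genes of the DCIR and Dectin-2 run lie above 0 in both comparisons, while Clec12a and Clec7a of the Dectin-1 run lie below 0 beside Clec9a and Olr1 above it. Clec4a1, Clec4b1, Clec4b2, Clec4e and Olr1 passed the filter on low signal only through the groups where they are high.

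A list of 42 other lectin-fold genes had 29 tested. In Zeb2low against Zeb2hi CDPs, 7 were higher and 3 lower, where 4.5% and 10.3% of all genes were, and the median difference was 0.31 beside 0.03 for all genes. The higher ones included the receptor genes Clec4b1, Olr1, Klrk1 (1.31 ± 0.26 SE, adjusted p = 0.0155), Clec4g (0.96) and Cd209d (0.84). Of the 7, Clec4b1, Olr1, Clec4g, Cd209d and Cd209e were below the 40th percentile on all 3 Zeb2hi arrays and were tested only through the groups where they are high, so the count of 7 supports nothing about the list. With a stricter filter 3 were higher and 3 lower. The lower ones were Clec2d, a ligand of the Klrb1 receptors (-1.39 ± 0.23, adjusted p = 0.00794), Klrb1f (-1.38 ± 0.24, adjusted p = 0.00969) and Cd93 (-1.10 ± 0.16, adjusted p = 0.00545), a marker of early progenitors. This count of 10 was 4 without Zeb2hi array 2 or array 3, and 6 without Zeb2low array 2 or array 3. Calls over all genes moved too, to between 532 and 2222 with 1 array left out, in place of 1978. In pre-CD8 DCs against Zeb2hi CDPs, 8 were higher and 5 lower (6.51% and 11.1% of all genes), with Klrb1b up by 2.04 ± 0.15 (adjusted p = 0.000144), and Cd93 (-3.06 ± 0.18, adjusted p = 5.08e-05), Cd69 (-2.14), Klrb1f (-2.13), Clec2d (-1.29) and Clec11a (-0.96) down. The 8 include Clec4b1, Olr1, Clec4g and Cd209e, tested only through the groups where they are high, so the count of 8 supports nothing about the list either. Between Zeb2low CDPs and pre-CD8 DCs 2 passed, Klrb1b higher (1.54 ± 0.15, adjusted p = 0.00504) and Cd93 lower (-1.97 ± 0.18, adjusted p = 0.00296). Klrb1b and Cd93 had an SD of 0.27 or less in each group.

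A list of 17 genes through which lectin receptors signal had 14 tested. Between Zeb2hi and Zeb2low CDPs 0 passed in limma, beside 14.8% of all genes, where 4 had an unadjusted p below 0.05. The adaptor Fcer1g, used by Clec4n, differed by -0.12 ± 0.24 (SE, adjusted p = 0.751), Tyrobp, used by Clec5a, by 0.04 ± 0.21 (adjusted p = 0.917), and Syk by 0.44 ± 0.33 (adjusted p = 0.361). Ptpn6, the phosphatase SHP-1 that inhibitory tails recruit, differed by -0.50 ± 0.18 (adjusted p = 0.0926). In pre-CD8 DCs against Zeb2hi CDPs, 2 of the 14 were higher and 0 lower, where 6.51% and 11.1% of all genes were. They were Plcg2, the phospholipase downstream of Syk (0.72 ± 0.16, adjusted p = 0.0188), and the Src-family kinase gene Fgr (2.55 ± 0.74, adjusted p = 0.0451). Fgr was highest on pre-CD8 DC array 1 (9.20) and Zeb2low array 2 (8.36), the arrays with the most neutrophil signal. The count of 2 was 0 without Zeb2hi array 2, Zeb2hi array 3 or pre-CD8 DC array 1, 1 without Zeb2hi array 1, Zeb2low array 3 or pre-CD8 DC array 2, and 4 without Zeb2low array 1. In the CDP comparison the count of 0 was 3 without either pre-CD8 DC array and 5 with the array number as a block over the CDP arrays. Calls over all genes also rose with that block, as given above, and ranged from 532 to 4467 over the alternative runs, in place of 1978. With 1 array left out, 532 to 2222 of all genes passed in the CDP comparison. In pre-CD8 DCs against Zeb2hi CDPs it was 1173 to 2779.

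A list of 12 genes downstream of such signalling had 8 tested. They are called induced genes below for short, which does not mean that such signalling induces each. Whether lectin signalling changed their RNA in these cells was not tested. The transcription factor gene Nfatc2 rose by 1.69 ± 0.15 (SE, adjusted p = 0.000784) in Zeb2low CDPs and was higher by 2.31 ± 0.17 (adjusted p = 0.000136) in pre-CD8 DCs than in Zeb2hi CDPs. It read 5.19, 5.53 and 5.37 in Zeb2hi CDPs, 6.87, 7.17 and 7.12 in Zeb2low CDPs, and 7.56 and 7.77 in pre-CD8 DCs, 3 groups without overlap. The cytokine gene Il1b was higher in pre-CD8 DCs than in Zeb2hi CDPs (3.73 ± 0.94, adjusted p = 0.0268), with 10.74 and 8.77 on the pre-CD8 DC arrays and its highest Zeb2low value, 9.55, on array 2. In Zeb2low against Zeb2hi CDPs 1 of the 8 was higher and 0 lower, where 4.5% and 10.3% of all genes were. In pre-CD8 DCs against Zeb2hi CDPs 2 were higher and 0 lower, where 6.51% and 11.1% of all genes were. Counts this small say little about the list. The count of 2 was 1 without Zeb2hi array 1, Zeb2hi array 3 or pre-CD8 DC array 1, and 1 when the array number was a block in a fit of all arrays. The other 6 tested genes of the list, Tnf and Cxcl2 among them, did not pass in any of the 3 comparisons. Il6, Il10, Il12b and Il23a were below the filter on low signal.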

How the data were processed

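RNA of 8 sorted samples was amplified (NuGen Ovation PicoSL WTA V2) and measured on Affymetrix arrays, per the labels. The values the authors deposited are linear probe set intensity values, made with RMA and Affymetrix Expression Console, both named without version in the submitters' processing notes. RMA gives no detection call and understates differences near the floor. Here the deposited intensities were log2 transformed. Of 28853 probe sets, the 21789 with 1 annotated gene were used, 1 for each of the 10 genes. A probe set was kept if at least 2 arrays lay above the array's own 40th percentile, and a gene with several was read from the brightest on average, giving 13356 genes.

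All 8 arrays entered 1 two-sided limma 3.58.1 fit (lmFit and eBayes, R 4.3.3) with 5 residual degrees of freedom, and adjusted p-values (Benjamini-Hochberg) were taken over all genes within a comparison, with a threshold of 0.05. The script was tested on simulated data. Precision is limited by the number of arrays. The genes and lists were chosen with earlier results of these data known. Named were all 10 genes; from the lists of other lectins, signalling genes and induced genes, up to 5 genes past the test per direction with the largest differences; adaptors, markers and neighbours that stand beside a lectin gene; and the 2 nearest patterns of each called gene.

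Replicate numbers come from the sample titles. Same-numbered Zeb2hi and Zeb2low arrays deviated together from their group means over all genes (correlations 0.478, 0.407 and 0.308, against -0.425 to 0.143 for pairs of unlike number). Deviations from a group's own mean cancel out within the group, so high same-number correlations push those of unlike number down. The contrast between them was thus in part fixed in advance. The main fit had no block for the number, so its p-values leave out such a pairing of the CDP arrays. Fits with the number as a block were run only as alternatives, and their counts are given beside the main ones. The alternatives were filters, scalings, array weights, the replicate block, left-out arrays and a neutrophil covariate, and 1 (Zeb2low array 2 and pre-CD8 DC array 1 left out together) was added after seeing the data. Promoter windows came from RefSeq; array coordinates were not used, since no build is named for the array annotation.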

Additional observations from a re-analysis of the deposited data

How the results depend on the processing

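No lectin gene called against Zeb2hi CDPs changed direction under any alternative run. Of the calls in Zeb2low against Zeb2hi CDPs, Clec4a2 passed under 21 of 21 alternatives, Cd209a under 17, Ly75 under 15, and Clec12a and Clec4a3 under 14. In pre-CD8 DCs against Zeb2hi CDPs, Clec4a1, Clec4a2 and Cd209a passed under 20 of 20, and Clec4a3 and Ly75 under 19. In what follows the order of comparisons is Zeb2low against Zeb2hi CDPs, pre-CD8 DCs against Zeb2low CDPs, and pre-CD8 DCs against Zeb2hi CDPs; a comparison not named stayed within 1.5 times its count, and the cause of a change was not tested.

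Leaving out 1 array at a time, the calls among the 10 lectin genes numbered 1 to 5 (5 with all arrays), 0 to 0 and 5 to 5. Those among other lectins numbered 4 to 10 (10), 2 to 3 (2) and 9 to 13 (13), among signalling genes 0 to 3 (0) in the first and 0 to 4 (2) in the third, and among induced genes 1 to 3 (2) in the third. All genes gave 532 to 2222 (1978), 20 to 117 (74) and 1173 to 2779 (2352).

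With the replicate block over the CDP arrays, the first comparison had 5 signalling, 4 induced and 4070 calls over all genes. With it over all arrays, the second had 1 other lectin and 15 of all genes, and the third 1 induced gene; the calls it changed among the 10 genes stand in the report. Array weights gave 8 lectin receptor, 6 signalling, 4 induced and 4467 calls over all genes in the first comparison and 1 signalling gene in the third. The neutrophil covariate gave 2 lectin receptor and 1 signalling gene in the first, and 3 lectin receptor, 0 signalling, 1 induced and 979 of all genes in the third. Median centring gave 3 signalling genes in the first and 1 in the third, quantile normalization 2 induced genes in the first, no filter 1 signalling gene in the third, and a stricter filter 6 other lectins in the first. Fitting only the 2 groups compared gave 3 signalling genes in the first and 16 of all genes in the second. Without Zeb2low array 1 and pre-CD8 DC array 1, signalling genes numbered 4 in the first and 1 in the third, induced genes 2 and 1, and all genes 41 in the second. Without Zeb2low array 2 and pre-CD8 DC array 1, signalling genes numbered 1 in the first and 0 in the third, other lectins 0 and all genes 11 in the second, and in the third induced genes numbered 1 and all genes 1180; the counts among the 10 lectin genes stayed at 5, 0 and 5, with Clec4a3 lost (adjusted p = 0.0825) and Clec7a gained in the first. Low signal limits Clec10a, above its 40th percentile on 2 arrays, and Clec4n, above it on 1.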
